A study of Mus musculus with 12 samples.

Results

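Glucose uptake and glycolysis were followed in cardiac macrophages (Mφ) through 10 genes picked by name: the glucose transporter gene Slc2a1, the hexokinase genes Hk1, Hk2 and Hk3, Pfkfb3, Pfkl, Aldoa, Pgk1, Pkm and Ldha. They are 10 of the 24445 gene symbols counted, and all 10 passed the filter on low counts that left 14608 genes for testing. The rule that picked them names genes and holds no measured value. Mφ had been sorted by FACS as CD14+/CD64+ cells, within a gate on CD11b, from hearts of adult male C57BL6/J mice, with 4 mice in each of 3 groups and 1 RNA library per mouse. In ECH mice (early concentric hypertrophy) an osmotic pump had delivered isoproterenol, which stimulates β-adrenergic receptors, over 14 days at 30 mg/kg/day. In HF mice (heart failure) the infusion at this dose had lasted 28 days. Control (Ct) mice received saline. The study's methods give 14 or 28 days for vehicle pumps and do not say which applied to each Ct mouse. The labels name no engineered allele in any group. A sort by surface markers takes whatever Mφ subsets the heart holds, and in such bulk RNA a smaller number of cells expressing a gene and less of its RNA per cell cannot be told apart.

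Glycolysis splits glucose into pyruvate in the cytosol and yields ATP without oxygen. Glucose enters through transporters such as GLUT1 (Slc2a1), is trapped by hexokinases, is committed to the pathway by phosphofructokinase and is finally turned into pyruvate by pyruvate kinase, after which lactate dehydrogenase can reduce pyruvate to lactate and regenerate NAD+. Mφ are known to raise glycolysis when activated by inflammatory signals or low oxygen, and the transcription factor HIF-1 is a well-known activator of many of these genes through hypoxia response elements with the core letters ACGTG or GCGTG. Its subunit HIF-1α is encoded by Hif1a.

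The promoters of the members the results turn on are printed here, because all 10 members share these HIF core letters in a promoter. RefSeq promoters of GRCm38.p6 were matched by symbol for all 10 members, 16 start sites in all, and the 250 bases before each start were searched on both strands for ACGTG and GCGTG. At least 1 match stood in 13 of the 16 windows (81.2%), against 38.6% of 32851 promoters of the same length over all genes. Windows of a gene can overlap, and the Aldoa windows chr7:126799179-126799428 and chr7:126799255-126799504 hold the same match. This background is per window, and no share per gene is given here. ACGTG alone stood in 16.6% of all promoters and GCGTG in 28.2%. The palindrome CACGTG, an E-box, holds overlapping ACGTG matches on both strands and stood in 6.02% of all promoters. A match is only a run of letters and does not show that a factor binds there. The windows below run 5′ to 3′ on the strand of the gene up to the base before the start site, with the matched letters in capitals (CACGT and CACGC are ACGTG and GCGTG read on the other strand).
Pkm, chr9:59656977-59657226, plus strand, with 1 match (the window of the other Pkm start held 0): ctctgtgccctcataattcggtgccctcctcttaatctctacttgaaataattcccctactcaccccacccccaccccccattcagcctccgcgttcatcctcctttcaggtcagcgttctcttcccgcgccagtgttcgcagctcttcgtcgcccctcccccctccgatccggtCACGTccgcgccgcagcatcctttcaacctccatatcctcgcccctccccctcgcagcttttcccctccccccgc
Pfkl, chr10:78009808-78010057, minus strand, with 1 match: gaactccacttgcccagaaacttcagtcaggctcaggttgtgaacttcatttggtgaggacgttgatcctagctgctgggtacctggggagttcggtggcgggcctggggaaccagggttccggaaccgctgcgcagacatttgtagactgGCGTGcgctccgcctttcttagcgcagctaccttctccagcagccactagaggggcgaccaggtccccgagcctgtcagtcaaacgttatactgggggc
Pgk1, chrX:106186850-106187099, plus strand, with 2 matches: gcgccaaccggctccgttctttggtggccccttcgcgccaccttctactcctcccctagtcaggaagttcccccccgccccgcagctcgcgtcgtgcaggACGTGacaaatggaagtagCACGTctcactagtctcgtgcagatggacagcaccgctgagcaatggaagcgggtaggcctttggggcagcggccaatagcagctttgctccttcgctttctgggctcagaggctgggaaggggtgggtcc
Ldha, chr7:46845554-46845803, plus strand, with 5 matches, of which 4 lie in the 2 copies of CACGTG (the window of the other Ldha start held 1): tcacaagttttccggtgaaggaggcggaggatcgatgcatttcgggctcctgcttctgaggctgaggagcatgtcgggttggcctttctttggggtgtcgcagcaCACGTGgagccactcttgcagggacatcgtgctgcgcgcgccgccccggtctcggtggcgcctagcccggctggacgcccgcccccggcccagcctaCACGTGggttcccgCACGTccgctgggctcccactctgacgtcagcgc
Pfkfb3, chr2:11502091-11502340, minus strand, with 3 matches, of which 2 lie in 1 copy of CACGTG (the window of the other Pfkfb3 start held 1): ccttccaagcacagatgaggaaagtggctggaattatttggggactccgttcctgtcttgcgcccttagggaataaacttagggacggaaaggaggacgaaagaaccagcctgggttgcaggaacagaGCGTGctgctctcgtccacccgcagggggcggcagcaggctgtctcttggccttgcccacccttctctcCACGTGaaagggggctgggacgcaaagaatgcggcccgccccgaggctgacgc
The printed Pkm and Pfkl windows, of the genes called below, held the fewest matches of these 5, and Ldha the most. For a gene with 2 starts the window with more matches was printed.

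Values per library are CPM, the counts of a gene scaled to a common library size by the TMM method of edgeR. Log2 fold changes, with standard errors (SE), come from a single quasi-likelihood fit of all 12 libraries in edgeR, and the FDR is the Benjamini-Hochberg adjusted p over all 14608 genes. Genes count as called here where the FDR was under 0.05 and the change at least 2-fold. Each library came from a separate mouse, so these p-values measure the spread between mice. The libraries held 88466559 to 111180291 counts and 13600 to 15940 detected genes, with the fewest genes in HF mouse 1 (13600) and Ct mouse 2 (14489). The sample labels number the libraries in 2 series, of which one holds the Ct libraries with ECH mice 1 and 2 and the other the HF libraries with ECH mice 3 and 4. The sources used here do not say what the series stand for. Ct and HF share no series, so for these groups condition and series cannot be told apart. The sort markers were present in every library: Cd14 held at least 1713 CPM, Itgam, which encodes CD11b, at least 223 CPM and Fcgr1, which encodes CD64, at least 71.5 CPM. The Mφ lineage gene Csf1r, which was not used in the sort, held at least 2620 CPM.

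**Figure D1:**
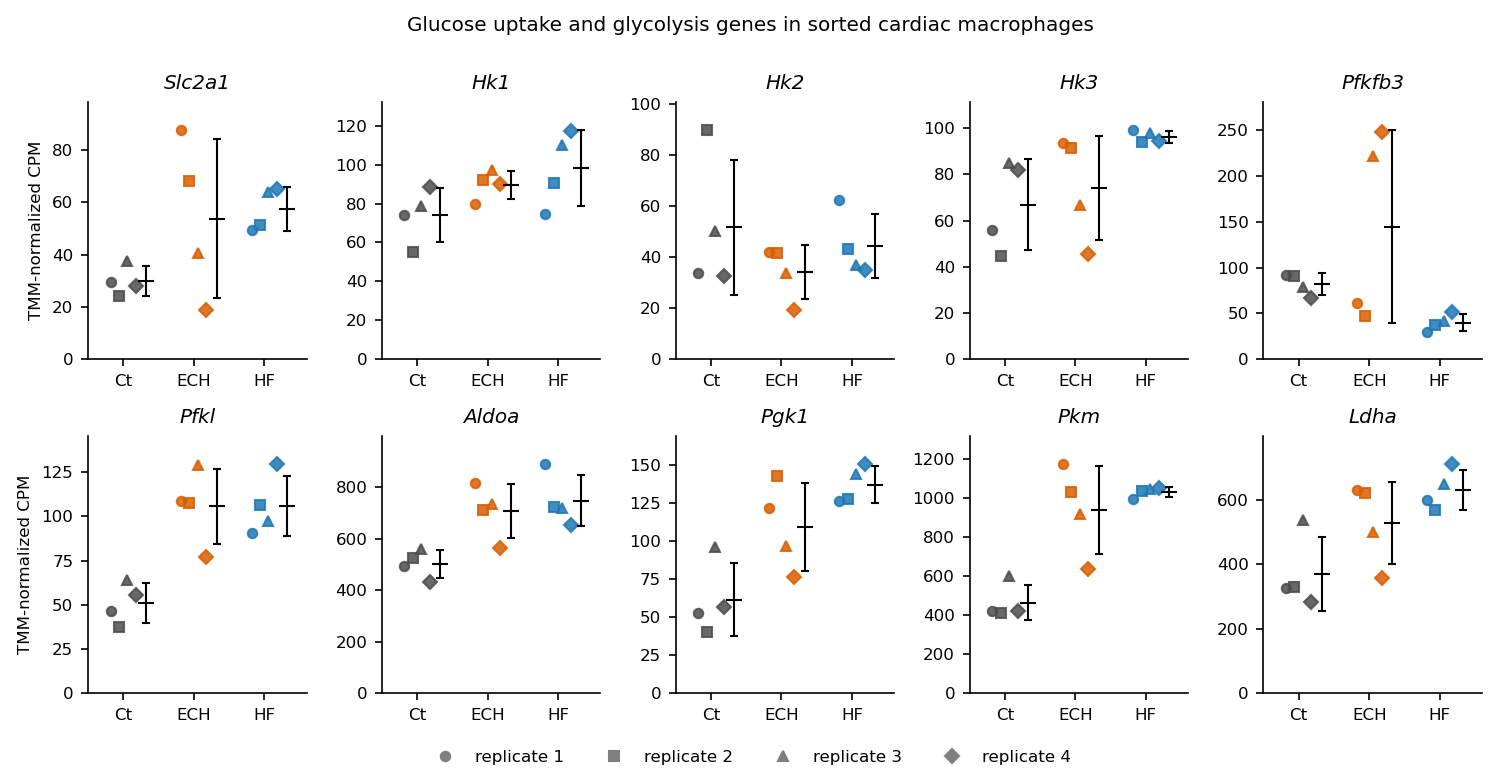
TMM-normalized CPM (y axes, from 0) of the 10 genes in each library of Ct, ECH and HF Mφ (x axes). Symbols mark the replicate number within a group, black bars the group mean ± SD (n = 4). For Pfkl and Pkm every ECH and HF library lies above every Ct library, while Pfkfb3 and Slc2a1 split the ECH libraries in opposite ways.

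Of the 10 genes, 2 rose in ECH against Ct, Pkm and Pfkl, beside 0.356% of all genes tested that were called in this comparison (0.267% called higher and 0.089% lower). The same 2 genes rose in HF against Ct, beside 0.377% of all genes called (0.267% higher and 0.11% lower). Between HF and ECH 0 members were called, as were 0% of all genes. In that comparison the quasi-likelihood test gave 410 genes higher in HF (2.81%) and 755 lower (5.17%) an unadjusted p under 0.05, 1 member (Pfkfb3, lower) among them, while DESeq2 called 47 genes and edgeR's likelihood ratio test 48. At an unadjusted p under 0.05, 6 members were higher in ECH than Ct (6.03% of all genes) and 0 lower (5.89%), and 8 were higher in HF than Ct (7.35% of all genes) and 1 lower (8.72%). The median log2 fold change over the 10 genes was 0.67 in ECH against Ct, 0.67 in HF against Ct and 0.13 in HF against ECH, where the medians of all genes tested were 0.01, −0.01 and −0.02. In 3 members every ECH library lay above every Ct library (4.33% of all genes) and in 0 below (3.64%), in 7 every HF library did (4.59%) and in 1 every HF library lay below (4.45%). In HF against ECH 1 member lay above throughout (3.36%) and 0 below (3.56%). The comparisons with Ct share the Ct libraries and are not independent of each other.

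Summed over the 10 genes, the level was 1547, 1628, 1649 and 2187 CPM in Ct, 2131, 2843, 2954 and 3209.5 CPM in ECH and 2875, 3007, 3014 and 3057 CPM in HF. Every HF library lay above every Ct library, and the lowest ECH library, ECH mouse 4, lay below the highest Ct library, Ct mouse 3. The 10 genes took 0.160% to 0.214% of all counts in Ct, 0.226% to 0.302% in ECH and 0.280% to 0.312% in HF.

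Pkm encodes the pyruvate kinase of most adult tissues, the last step to pyruvate, and its splicing gives the M1 and M2 isoforms. These isoforms cannot be told apart in counts per gene. It lies on chromosome 9 of GRCm38 from 59656368 to 59679375 (plus strand). The Ct mice held 423, 412, 599 and 421 CPM of Pkm, the ECH mice 1172, 1029, 919 and 636 CPM and the HF mice 994, 1034, 1044 and 1049.6 CPM. All ECH and HF libraries lay above all Ct libraries, the HF libraries were nearly level, and ECH mouse 4 was closest to Ct mouse 3. The mean was 464 ± 89.9 CPM over the Ct mice (SD, n = 4), 939 ± 227 over the ECH mice and 1030.4 ± 25.0 over the HF mice. Pkm rose 2.02-fold in ECH (log2 fold change 1.02, SE 0.18, edgeR FDR 0.0298) and 2.22-fold in HF (1.15, SE 0.18, edgeR FDR 0.0176). By p it ranked 38 and 20 among all genes tested in these comparisons, ahead of every other member.

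Over the 12 fits that left out 1 library the log2 fold change of Pkm lay between 0.89 and 1.17 in ECH and between 1.10 and 1.30 in HF, but the gene stayed called in 3 and 7 of these fits, with an edgeR FDR of up to 0.0981 and 0.0754. Within the number series, ECH mice 1 and 2 against Ct gave 1.24 (edgeR FDR 0.213). In HF the call was lost on leaving out any one of Ct mice 1 and 4 and HF mice 2, 3 and 4, and in ECH it was kept only without Ct mouse 3, ECH mouse 4 or HF mouse 1. Without Ct mouse 2 and HF mouse 1 together Pkm stood at 0.95 in ECH (edgeR FDR 0.0823) and 1.11 in HF (edgeR FDR 0.0641). With the number series as a covariate it was called at 1.25 in ECH (SE 0.18, edgeR FDR 0.0211) and 1.65 in HF (SE 0.26, edgeR FDR 0.0123), the latter with only ECH to link the series.

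Pfkl encodes the liver-type phosphofructokinase, which commits glucose to glycolysis, and lies on chromosome 10 from 77986947 to 78010083 (minus strand). In Ct it stood at 46.8, 37.7, 64.0 and 55.8 CPM, in ECH at 109, 108, 129 and 77.3 CPM and in HF at 90.7, 106, 97.4 and 129 CPM. Neither isoproterenol group overlapped Ct, and the ECH and HF ranges overlapped. Pfkl rose 2.07-fold in ECH (log2 fold change 1.05, SE 0.19, edgeR FDR 0.0334) and 2.08-fold in HF (1.05, SE 0.19, edgeR FDR 0.0361). Between HF and ECH the difference was 0.00 with a 95% interval from −0.41 to 0.42. The gene stayed called in 4 (ECH) and 3 (HF) of the 12 fits that left out a library, over which the log2 fold change lay between 0.93 and 1.18 in both comparisons. In both the calls were kept without Ct mouse 3 or ECH mouse 4, in ECH also without HF mouse 1 or HF mouse 4, in HF also without ECH mouse 3, and lost without any one of the others. ECH mice 1 and 2 alone gave 1.08 against Ct (edgeR FDR 0.517), and with the series as a covariate the FDR was 0.136 in ECH and 0.125 in HF.

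The other phosphofructokinase subunits were not called. Pfkp stood at a log2 fold change of 0.55 in HF (SE 0.21, edgeR FDR 0.232) and 0.34 in ECH against Ct, and Pfkm at 0.29 and 0.45. Levels of different genes were compared per kilobase of the union of annotated exons, which can be longer than the transcripts present. Shares and orders on this scale depend on that length. Unscaled means in Ct, ECH and HF were 81.0, 102 and 119 CPM for Pfkp and 51.1, 106 and 106 for Pfkl. Per kilobase, Pfkl made up 45.6% ± 1.09 (SD, n = 4) of the 3 phosphofructokinase transcripts in Ct, 56.9% ± 5.25 in ECH and 55.6% ± 4.75 in HF. The highest Ct library was at 46.9%, below the lowest ECH library (49.9%) and the lowest HF library (49.8%). The platelet-type Pfkp made up 35.4%, 27.7% and 31.1% and the muscle-type Pfkm 19.1%, 15.4% and 13.3% in the same order. The summed level of the 3 genes was 16.7 ± 3.47 CPM per kb in Ct, 27.6 ± 3.25 in ECH and 28.5 ± 2.72 in HF. These shares were not tested.

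Pfkfb3 encodes an enzyme that makes fructose-2,6-bisphosphate, the strongest activator of phosphofructokinase, and lies on chromosome 2 from 11471433 to 11554077 (minus strand). Unlike most members it was lower in HF than in Ct. In Ct it was at 91.6, 90.8, 79.2 and 66.4 CPM and in HF at 29.5, 36.9, 42.1 and 51.0 CPM. ECH mice 1 and 2 held 61.1 and 47.1 CPM, ECH mice 3 and 4 held 222 and 248 CPM. So every HF library was below every Ct library, and the ECH libraries fell on both sides of Ct along the line of the number series. The mean over ECH, 145 ± 105 CPM (SD, n = 4), describes neither pair.

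The log2 fold change of Pfkfb3 was −1.04 in HF against Ct (SE 0.44, edgeR FDR 0.272), 0.82 in ECH against Ct (SE 0.43, edgeR FDR 0.489) and −1.86 in HF against ECH (SE 0.45, edgeR FDR 0.491), none of which was called. With the number series as a covariate it was at −3.16 in HF against Ct and called (SE 0.31, edgeR FDR 0.000954), in a fit where only the ECH libraries link the series. Within the number series, ECH mice 1 and 2 stood at −0.61 against Ct (edgeR FDR 0.856) and HF at −2.56 against ECH mice 3 and 4 (edgeR FDR 0.00218). The likelihood ratio test (FDR 0.0165) and DESeq2 (FDR 0.00551) also called the difference between HF and all ECH mice, with an FDR from 0.000117 to 1 over 24 alternatives.

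Among the transcripts of the 4 Pfkfb genes, counted per kb, Pfkfb4 was the most abundant in every Ct and HF library, with a mean of 61.4% in Ct and 77.8% in HF. In ECH it led in mice 1 and 2 (71.3% and 75.9%, against 24.5% and 18.8% for Pfkfb3), while Pfkfb3 led in mice 3 and 4 (53.3% and 62.4%, against 42.2% and 33.9% for Pfkfb4). Pfkfb3 took 31.9% ± 4.33 in Ct, 39.7% ± 21.3 in ECH and 16.6% ± 3.18 in HF (SD, n = 4). In HF its highest share was 20.3%, in Ct its lowest was 26.4%. Pfkfb2 was at 14.3 ± 1.33 CPM in Ct, 11.2 ± 3.11 in ECH and 9.67 ± 2.22 in HF, with every HF library below every Ct library (log2 fold change −0.57, SE 0.25, edgeR FDR 0.282). Tigar, whose product degrades fructose-2,6-bisphosphate, was scarce, at 1.22 ± 0.712 CPM in Ct, 3.25 ± 1.0 in ECH and 2.73 ± 0.767 in HF (1.41 in ECH against Ct, SE 0.56, edgeR FDR 0.338).

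**Figure D2:**
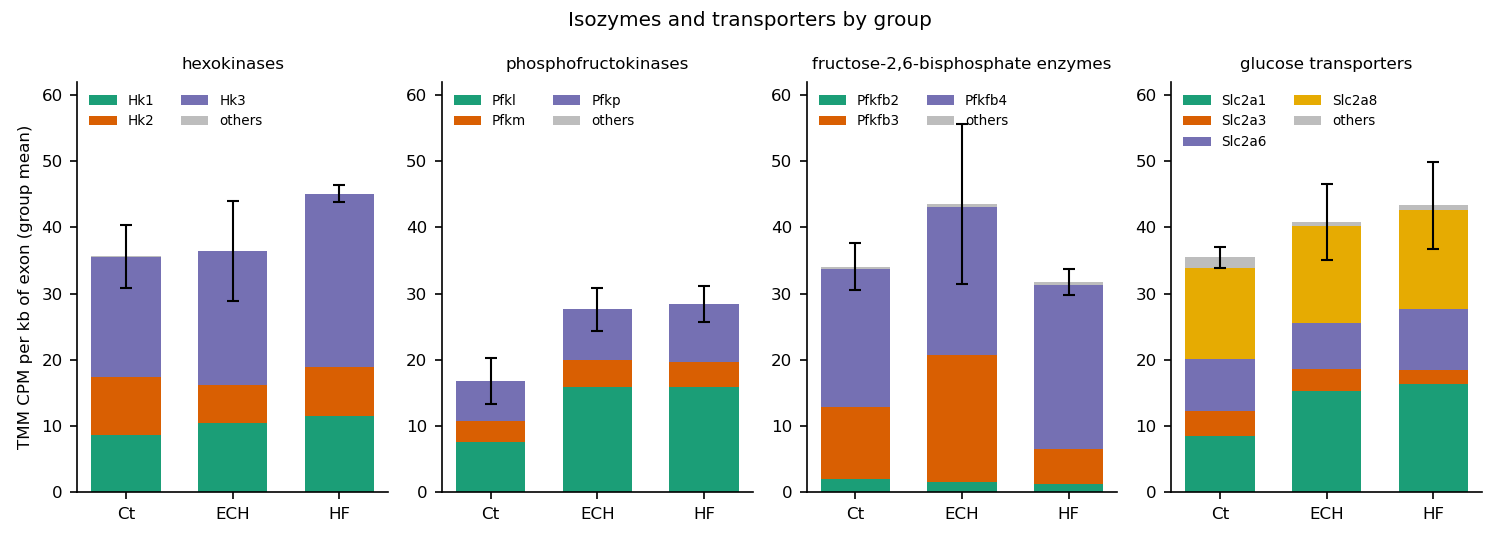
Mean level in TMM CPM per kb of exon (y axis, from 0) of hexokinases, phosphofructokinases, fructose-2,6-bisphosphate enzymes and glucose transporters in Ct, ECH and HF Mφ, stacked by gene, with the remaining members of each family in grey. Black bars are the SD of the family sum (n = 4). The Pfkl block is larger in ECH and HF than in Ct, and the Pfkfb3 block is smallest in HF.

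Slc2a1 encodes GLUT1, the main basal glucose transporter of many cells, and lies on chromosome 4 from 119108711 to 119137983 (plus strand). Ct mice held 29.6, 24.3, 37.7 and 27.8 CPM of it, ECH mice 87.6, 68.2, 40.6 and 18.8 CPM and HF mice 49.3, 51.4, 64.2 and 65.3 CPM. All HF libraries were above all Ct libraries. ECH mice 1 and 2 were the highest of all 12 and ECH mouse 4 the lowest of all 12, whereas ECH mice 3 and 4 were the highest of all 12 for Pfkfb3. The log2 fold change was 0.95 in HF against Ct (SE 0.35, edgeR FDR 0.223) and 0.85 in ECH against Ct (SE 0.35, edgeR FDR 0.357). With the number series as a covariate Slc2a1 was at 2.34 in HF against Ct and called (SE 0.40, edgeR FDR 0.0167), again with only ECH to link the series. ECH mice 1 and 2 alone were at 1.38 against Ct (edgeR FDR 0.213 when only that series was fitted, 0.0361 with the HF libraries kept in the fit). HF was at 0.96 against ECH mice 3 and 4 (edgeR FDR 0.118). Against all ECH mice HF was at 0.10, with a 95% interval from −0.65 to 0.84.

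Of 10 other glucose transporter genes 5 passed the filter, and 0 were called. Slc2a8 (GLUT8, an intracellular transporter) had the largest share per kb in Ct, 38.9% against 24% for Slc2a1. In HF the shares were 35.2% and 37.9%, and 36.9% and 35.8% in ECH, where Slc2a1 ranged from 15.9% to 52.9% between mice. Slc2a3 (GLUT3) was at 27.4 ± 8.0 CPM in Ct, 24.2 ± 8.29 in ECH and 14.7 ± 10.2 in HF (log2 fold change −0.90 in HF against Ct, SE 0.44, edgeR FDR 0.337). Slc2a4 (GLUT4, the insulin-regulated transporter of muscle and fat) held 20 to 483 counts in Ct, 0 to 87 in ECH and 4 to 46 in HF, with the highest count in Ct mouse 2 (−3.70 in HF against Ct, SE 1.66, edgeR FDR 0.297).

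Hexokinases phosphorylate glucose and so keep it in the cell, and none of the 3 hexokinase members was called in any comparison. Hk3 (chromosome 13, 55005985 to 55021385, minus strand), the form typical of myeloid cells, was the most abundant per kb in each library but Ct mouse 2, where Hk2 took 44.7% and Hk3 36.1%. In unscaled CPM the mean of Hk1 was above that of Hk3 in Ct (74.1 against 66.9), ECH (89.8 against 74.3) and HF (98.2 against 96.3). Hk3 made up 50.5% ± 10.1 of hexokinase transcripts in Ct, 54.4% ± 6.11 in ECH and 58.0% ± 0.947 in HF (SD, n = 4). It held 56.1, 44.7, 85.1 and 81.8 CPM in Ct, 93.4, 91.2, 66.8 and 45.7 CPM in ECH and 99.1, 93.8, 97.8 and 94.5 CPM in HF. Each HF library was above every Ct and every ECH library. The log2 fold change of Hk3 was 0.52 in HF against Ct (SE 0.24, edgeR FDR 0.297), 0.15 in ECH against Ct (SE 0.24, edgeR FDR 0.851) and 0.37 in HF against ECH (SE 0.24, edgeR FDR 0.740). Within the series HF stood at 0.78 against ECH mice 3 and 4 (edgeR FDR 0.0353, under the 2-fold minimum).

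Hk1 (chromosome 10, 62268855 to 62379908, minus strand), the widely expressed form bound to mitochondria, was at 74.1 ± 14.1 CPM in Ct, 89.8 ± 7.19 in ECH and 98.2 ± 19.5 in HF, with overlapping groups. Its log2 fold change was 0.41 in HF (SE 0.17, edgeR FDR 0.273) and 0.28 in ECH against Ct (SE 0.17, edgeR FDR 0.566). Hk2 (chromosome 6, 82725025 to 82774454, minus strand), the inducible form, was at 33.9, 89.8, 50.2 and 32.7 CPM in Ct, 42.2, 41.6, 34.0 and 19.2 CPM in ECH and 62.3, 43.0, 37.1 and 34.9 CPM in HF. Ct mouse 2 and HF mouse 1, the libraries with the fewest detected genes, held the most Hk2 of their groups. Hk2 was the only member with a mean below Ct in both isoproterenol groups (log2 fold change −0.59 in ECH, SE 0.34, edgeR FDR 0.521, and −0.22 in HF, SE 0.34, edgeR FDR 0.799), and without Ct mouse 2 its value in HF against Ct was 0.19.

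Aldoa encodes aldolase A, which splits fructose-1,6-bisphosphate, and lies on chromosome 7 from 126795234 to 126800751 (minus strand). It was the most abundant member per kb in every group. In unscaled CPM it was below Pkm on average in ECH (707 against 939) and HF (748 against 1030). Its levels were 494, 525, 559 and 433 CPM in Ct, 815, 713, 736 and 563 CPM in ECH and 889, 725, 721 and 656 CPM in HF, without overlap of Ct with either group. The log2 fold change was 0.49 in ECH (SE 0.15, edgeR FDR 0.179) and 0.57 in HF (SE 0.15, edgeR FDR 0.107). It did not pass the FDR threshold in this fit. Over the alternatives it passed in 1 of 24 in ECH (FDR 0.0333 to 0.777) and 3 of 23 in HF (FDR 0.00543 to 0.239). The change stayed under 2-fold in all of them. Of aldolase transcripts per kb, 99.5% were Aldoa in Ct, 99.4% in ECH and 99.3% in HF.

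Pgk1 encodes phosphoglycerate kinase, the first ATP-producing step, and lies on chromosome X from 106187100 to 106203699 (plus strand). Ct mice held 52.6, 40.5, 96.2 and 57.0 CPM, ECH mice 121, 143, 96.7 and 76.0 CPM and HF mice 126, 127, 144 and 150.1 CPM. HF lay above Ct throughout, while ECH mouse 4 lay below Ct mouse 3. Its log2 fold change, 1.15 in HF (SE 0.25, edgeR FDR 0.0629) and 0.83 in ECH (SE 0.25, edgeR FDR 0.190), was as large in HF as that of Pkm, with a wider error. Other tests called Pgk1 in HF, namely limma-voom (FDR 0.0136), the likelihood ratio test (FDR 0.00132) and DESeq2 (FDR 0.000599). So did the fit with the number series as a covariate (1.76, edgeR FDR 0.0455) and the fit that left out Ct mouse 3 (1.45, edgeR FDR 0.0108). Over all alternatives the FDR reached 0.185.

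Ldha encodes the lactate dehydrogenase subunit that favours lactate formation and lies on chromosome 7 from 46841475 to 46855627 (plus strand). It stood at 326, 329, 538 and 282 CPM in Ct, at 628, 622, 501 and 357 CPM in ECH and at 599, 567, 649 and 709 CPM in HF. As for Pgk1, HF was above Ct throughout and Ct mouse 3 was high for its group. The log2 fold change was 0.77 in HF (SE 0.22, edgeR FDR 0.134) and 0.51 in ECH (SE 0.22, edgeR FDR 0.366). Ldha made up 94.5% of lactate dehydrogenase transcripts per kb in Ct, 95.8% in ECH and 97.6% in HF, the rest being Ldhb.

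**Figure D3:**
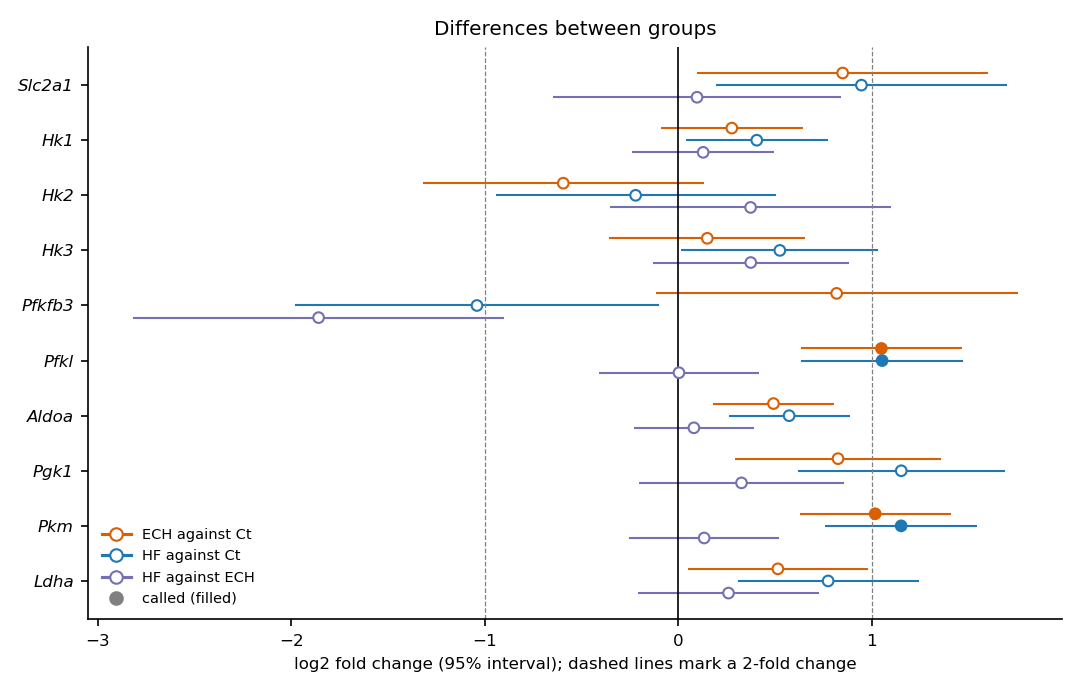
Log2 fold change with its 95% interval (x axis) of each of the 10 genes (y axis) for ECH against Ct, HF against Ct and HF against ECH, from the edgeR fit. Filled points mark the genes called, Pfkl and Pkm against Ct, and dashed lines mark a 2-fold change.

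The members' order by level changed between groups. Per kb of exon, Aldoa (173 CPM per kb in Ct, 243 in ECH, 257 in HF), Pkm (92.7, 188 and 206) and Ldha (111.5, 159 and 191) led in each, followed by Pgk1 (27.4, 48.6 and 61.0) and Hk3 (18.2, 20.2 and 26.2). In Ct the ranges of Pkm and Pgk1 did not overlap, nor did those of Hk3 and Pfkfb3, while other neighbours in the order overlapped. Pfkl was last in Ct (7.65 CPM per kb) and 7 of 10 in the order in ECH and HF, and Pfkfb3 was 6 of 10 in Ct and last in HF (5.27 CPM per kb). In HF, Hk3 and Slc2a1 (16.4 CPM per kb) did not overlap, whereas Slc2a1, Pfkl, Hk1, Hk2 and Pfkfb3 each overlapped their neighbour in this order.

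Between HF and ECH Mφ none of the members that were higher than Ct passed the test. The log2 fold change of HF against ECH was 0.13 for Pkm (95% interval −0.25 to 0.52), 0.08 for Aldoa (−0.23 to 0.39), 0.33 for Pgk1 (−0.20 to 0.86) and 0.26 for Ldha (−0.21 to 0.73). These intervals leave room for differences of some size in either direction. Against ECH mice 3 and 4 alone, Hk3 (0.78, SE 0.16, edgeR FDR 0.0353) and Pgk1 (0.67, SE 0.14, edgeR FDR 0.0379) passed the FDR threshold in HF, both under the 2-fold minimum, and Pfkfb3 was lower, as given above. ECH mouse 4 was the lowest ECH library for 8 of the 10 genes, with Hk1 and Pfkfb3 the exceptions.

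Steps of glycolysis outside the 10 members were read from a list of 16 further enzyme genes, of which 12 could be tested. In ECH against Ct 0 were called (0.356% of all genes), 3 were higher (6.03%) and 1 lower (5.89%) at an unadjusted p under 0.05, and the median log2 fold change was 0.44. In HF against Ct 2 were called, Pgam1 and Gapdh (0.377% of all genes), 6 were higher (7.35%) and 0 lower (8.72%) at an unadjusted p under 0.05, and the median was 0.61. Pgam1, phosphoglycerate mutase, held 134, 143, 189 and 135 CPM in Ct, 265, 316, 319 and 199.7 CPM in ECH and 249, 301, 308 and 365 CPM in HF. All libraries of both isoproterenol groups lay above Ct, and Pgam1 rose 2.03-fold in HF (log2 fold change 1.02, SE 0.18, edgeR FDR 0.0284). In ECH it was at 0.87 (SE 0.18, edgeR FDR 0.0523). Gapdh, glyceraldehyde-3-phosphate dehydrogenase and a common reference gene for qPCR, held 503, 414, 744 and 433 CPM in Ct, 902, 987, 773 and 672 CPM in ECH and 980.0, 989, 1029.8 and 1258 CPM in HF. It rose 2.03-fold in HF (1.02, SE 0.19, edgeR FDR 0.0366) and was at 0.67 in ECH (SE 0.19, edgeR FDR 0.165). Tpi1, triose phosphate isomerase, passed the FDR threshold in HF below the 2-fold minimum (0.86, SE 0.15, edgeR FDR 0.0284) and was at 0.61 in ECH (SE 0.15, edgeR FDR 0.107). Gapdh, Pgam1 and Tpi1 catalyse steps between those of Aldoa and Pkm.

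**Figure D4:**
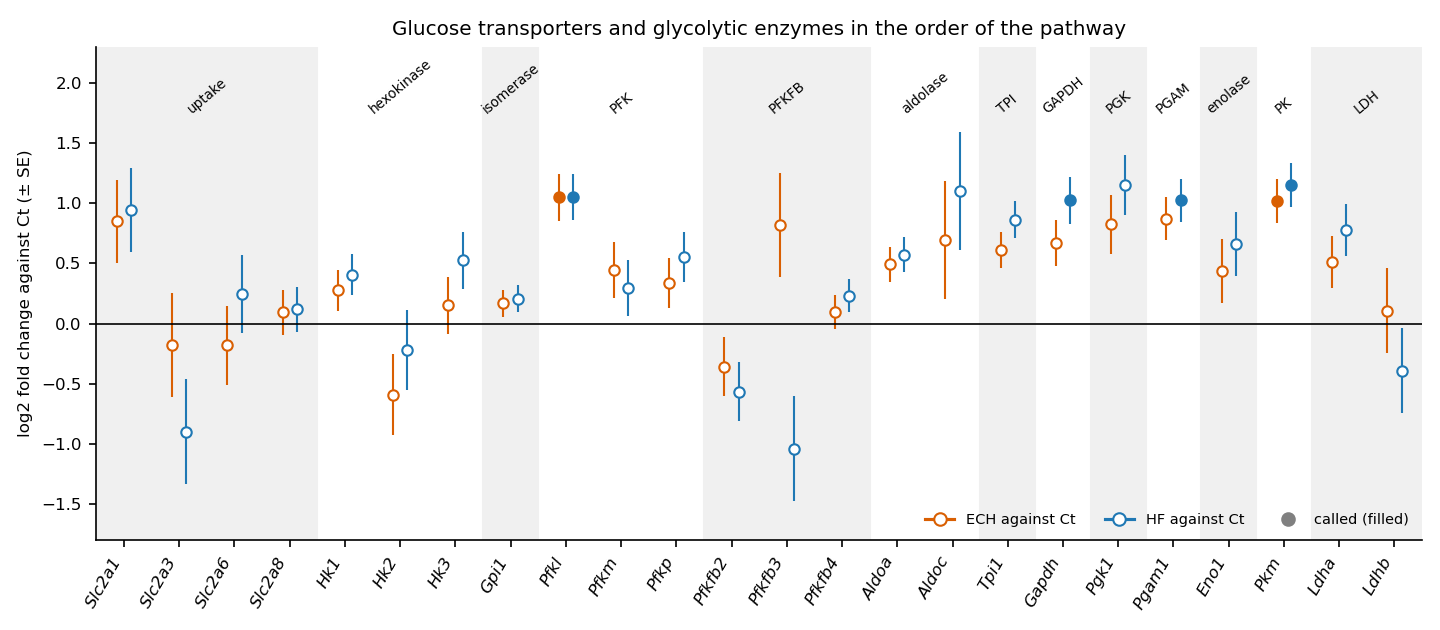
Log2 fold change against Ct ± SE (y axis) of glucose transporter and glycolytic enzyme genes in pathway order (x axis), for ECH (orange) and HF (blue). Filled points are called, Pfkl and Pkm in both and Gapdh and Pgam1 in HF, and most genes from aldolase on lie above 0 in both comparisons.

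The genes whose level over the 12 libraries ran most closely with that of Pkm, the member with the lowest p, were M6pr (Pearson's r of log2 CPM 0.98), Ghitm (0.97), Tpi1 (0.97), Sdcbp (0.96) and Lgals3 (0.96). These correlations include the difference between groups that the libraries share, and they are given as a description.

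In the pathways next to glycolysis the listed genes gave 0 calls. Of 16 genes for pyruvate and lactate handling 0 were called in any comparison, with medians of 0.22 in ECH and 0.32 in HF against Ct. Pdk3, a kinase that inhibits pyruvate dehydrogenase, was above Ct in every library of both groups (log2 fold change 0.60 in ECH, SE 0.16, edgeR FDR 0.132, and 0.58 in HF, SE 0.16, edgeR FDR 0.127), and Pdk1, another such kinase, in every ECH library (0.82, SE 0.25, edgeR FDR 0.207). Of 8 pentose phosphate genes 0 were called. Pgd was at 0.47 in ECH (SE 0.15, edgeR FDR 0.232) and Tkt at 0.37 in HF (SE 0.17, edgeR FDR 0.298). Of 10 glycogen genes 0 were called. At an unadjusted p under 0.05, 5 were higher in HF against Ct (7.35% of all genes) and 0 lower (8.72%). Among the 5 were Gyg (0.71, SE 0.20, edgeR FDR 0.143), which primes glycogen, and Ugp2 (0.38, SE 0.12, edgeR FDR 0.160), which makes its substrate. Of 7 gluconeogenesis genes 4 were tested and 0 called, with G6pc3 at 0.65 in HF (SE 0.25, edgeR FDR 0.236) and Fbp1, at 6 to 565 counts per library, at 1.96 in ECH (SE 0.97, edgeR FDR 0.453).

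HIF-1α is the known activator named above. Hif1a itself was at 106, 70.7, 129 and 107 CPM in Ct, 171, 177, 175 and 138 CPM in ECH and 107, 166, 151 and 181 CPM in HF. Every ECH library was above every Ct library, with a log2 fold change of 0.68 (SE 0.19, edgeR FDR 0.161), and HF overlapped Ct (0.56, SE 0.19, edgeR FDR 0.204). Of the 8 HIF pathway regulators listed, Hif1a among them, 0 were called. Arnt, the partner subunit, was lower in every HF library than in every ECH library (−0.52, SE 0.20, edgeR FDR 0.564).

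Of 14 HIF target genes outside glycolysis, all tested, 14 had a log2 fold change above 0 in ECH against Ct (median 0.43), beside 51.1% of all genes tested, and 10 in HF (median 0.29), beside 48.8% of all genes. Of the 14, 1 was called, in HF against Ct, beside 0.377% of all genes. P4ha2, a collagen prolyl hydroxylase, held 3.24, 4.36, 5.27 and 5.15 CPM in Ct, 11.02, 10.6, 5.56 and 7.17 CPM in ECH and 21.2, 12.5, 11.2 and 15.8 CPM in HF. The groups did not overlap, and P4ha2 rose 3.37-fold in HF against Ct (1.75, SE 0.31, edgeR FDR 0.0284). In ECH it was at 0.93 (SE 0.30, edgeR FDR 0.232).

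Of 11 regulators of glucose sensing and uptake 0 were called. Arrdc4, an arrestin-like protein that limits glucose uptake, passed the FDR threshold in ECH against Ct just under the 2-fold minimum (0.97, SE 0.19, edgeR FDR 0.0401), at 52.8 ± 12.1 CPM in Ct, 104 ± 19.8 in ECH and 68.9 ± 8.79 in HF (SD, n = 4). Prkaa1, a catalytic subunit of AMPK, was at −0.65 in HF against ECH (SE 0.21, edgeR FDR 0.535) with no overlap. None of these lists is independent of earlier looks at these libraries.

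Markers of other cells were summed in each library. The summed level of 6 B cell markers was 100.1 to 461 CPM in Ct, 36.1 to 82.0 CPM in ECH and 50.7 to 77.4 CPM in HF, so that every Ct library lay above every ECH and HF library. Over the 12 libraries Cd79a was the most abundant on average, while Cd79b led in ECH and HF. Of 10 genes known to respond to tissue dissociation, led by Fos, 6 were lower in each isoproterenol group at an unadjusted p under 0.05. Of all genes, 5.89% were lower in ECH and 8.72% in HF at this threshold. Of the 10 genes 0 were called, and their summed level was 34186 to 46632 CPM in Ct, 15055 to 35554 CPM in ECH and 16221 to 28890 CPM in HF. The summed levels of T and NK cell markers, led by Nkg7 over all libraries and by Lck in Ct (16.1 to 89.2, 3.45 to 29.6 and 8.37 to 20.9 CPM) and of neutrophil markers, led by S100a9 (346 to 1634, 191 to 527 and 131 to 1266 CPM) were also lower on average in ECH and HF, with 0 genes called. Of 14 cardiomyocyte markers, led by Actc1, 6 were lower in HF than Ct at an unadjusted p under 0.05 (8.72% of all genes). Of the 14, 0 were called (summed 125 to 329 CPM in Ct, 111.2 to 215 in ECH and 86.9 to 148 in HF). Fibroblast markers, led by Dcn, summed to 29.8 to 197 CPM in Ct, 90.8 to 477 in ECH and 81.4 to 254 in HF, with overlapping ranges and 0 called, and endothelial markers, led by Ly6c1, to at most 57.6 CPM. Erythrocyte markers, led by Alas2, were near 0, at no more than 0.858 CPM. Of 8 proliferation markers, led by Mki67 over all libraries and by Top2a in ECH and HF, 0 were called, with summed levels of 51.8 to 159 CPM in Ct, 84.0 to 191 in ECH and 79.4 to 156 in HF.

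Within the Mφ gate, markers of Ly6C-high monocytes summed to 429 ± 124 CPM in Ct, 591 ± 80.2 in ECH and 711 ± 181 in HF (SD, n = 4), led by Ccr2. The 6 resident Mφ markers, led by Mrc1 in Ct and HF and by Cd163 on average in ECH, summed to 4735 to 6120 CPM in Ct, 5181 to 6590 in ECH and 4670 to 5501 in HF. In ECH against Ct 3 of the 6 had a log2 fold change above 0 (51.1% of all genes), and 1 was called (0.356% of all genes): Timd4 fell (−1.62, SE 0.30, edgeR FDR 0.0341). At an unadjusted p under 0.05, 1 was higher (6.03% of all genes), Cd163 (0.72, SE 0.24, edgeR FDR 0.241), and 2 were lower (5.89%), Timd4 among them. The 9 sort and lineage markers, of which Lyz2 made up most of the sum (a mean of 14154 CPM in Ct, 16516 in ECH and 18647 in HF), summed to 22930 to 25136 CPM in Ct, 22340 to 32716 in ECH and 24249 to 31635 in HF, with 0 called. Of these, Itgam was at 223 to 559 CPM in Ct, 636 to 787 in ECH and 407 to 702 in HF (log2 fold change 0.92 in ECH against Ct, SE 0.24, edgeR FDR 0.132). Mertk, an efferocytosis receptor, was at 76.0 to 177 CPM in Ct, 174 to 496 in ECH and 91.6 to 144 in HF. Its log2 fold change was 1.43 in ECH against Ct (SE 0.35, edgeR FDR 0.101) and −1.43 in HF against ECH (SE 0.35, edgeR FDR 0.491). Both values average over a split of ECH along the number series. ECH mouse 1 (183 CPM) and ECH mouse 2 (174 CPM) were close to Ct mouse 4 (177 CPM). Far higher were ECH mouse 3 (496 CPM) and ECH mouse 4 (414 CPM). Every ECH library still lay above every HF library for Mertk. The part of any of these in the levels of the glycolysis genes was not tested.

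**Figure D5:**
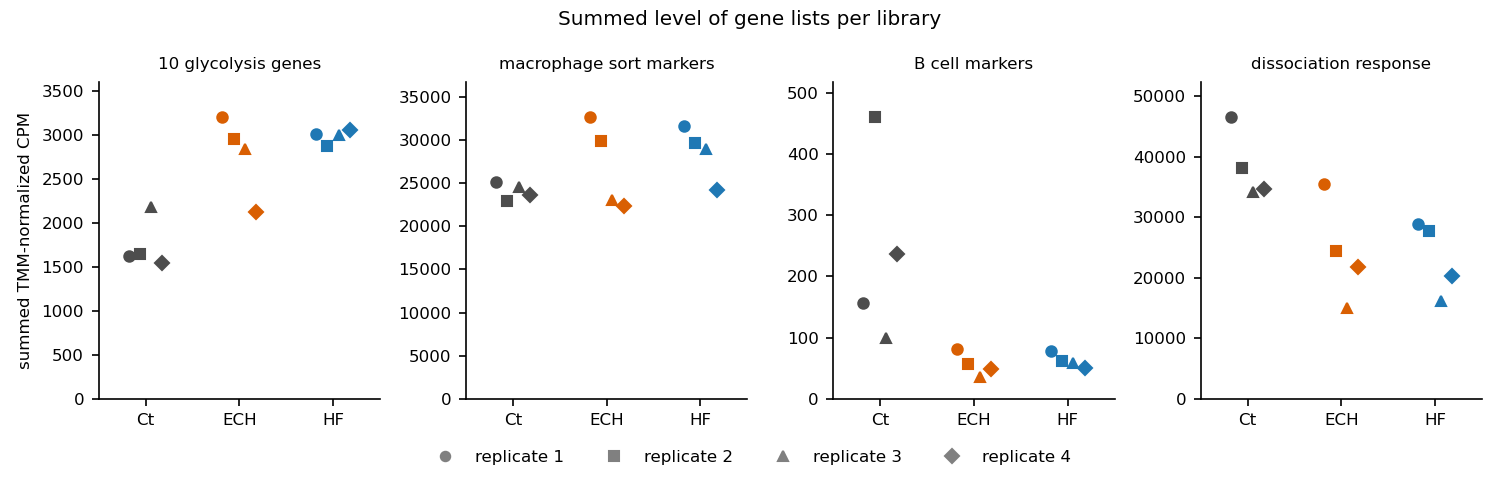
Summed TMM-normalized CPM (y axes, from 0) of the 10 glycolysis genes, the Mφ sort markers, B cell markers and dissociation-response genes in each library of Ct, ECH and HF (x axes), with symbols for the replicate number. On average the 10 genes are lowest in Ct, where B cell markers and dissociation-response genes are highest.

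Some counts may hold reads of related or overlapping genes. Retrogene copies that the files list were scarce, with at most 26 counts per library for Aldoart1, 41 for Ldhal6b and 11 for Ldhc, while unlisted processed pseudogenes could still take or give reads of Aldoa, Pgk1, Pkm, Ldha and Gapdh. On the opposite strand the exons of Hk1 overlap those of Hk1os by 157 bases, those of Hk3 overlap Unc5a by 34 bases and those of Aldoa overlap Fam57b by 25 bases. The sources used here do not state the strand setting of the counting, and these genes held at most 145, 825 and 127 counts per library. The exons of Slc2a1 overlap those of Gm12868 on the opposite strand by 105 bases, and the count table does not list Gm12868. A transcript model inside Pkm that the count table does not list, Gm49759, shares 767 bases of exon with it.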

How the data were processed

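The authors deposited raw counts of reads per gene, which the methods and submitters' notes credit to Trimmomatic, TopHat2 on mm10 and featureCounts, from SMART-Seq v4 libraries read on an Illumina NextSeq. The sources used here give neither versions nor the strand setting. The 12 libraries were grouped by their labels. Counts were filtered (filterByExpr), scaled by TMM and fitted together by the quasi-likelihood test of edgeR 4.0.16 (limma 3.58.1, R 4.3.3), with Benjamini-Hochberg adjustment over 14608 genes and calls at an FDR under 0.05 and at least 2-fold. The biological coefficient of variation was 60.8%. DESeq2 1.42.0, limma-voom, other filters and scalings, the replicate numbers, the number series and left-out libraries were alternatives. The scripts were tested on simulated data. Levels between genes used the length of the union of all annotated exons of a gene in GENCODE M21 (GRCm38). Figures were drawn with Python 3.11.15 and matplotlib 3.10.9.

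The members and gene lists were chosen with earlier results of these data known. Named genes are all members, the genes of each pathway list that were called or otherwise the 2 with the lowest p, and the 5 genes that correlated best with the lowest-p member. Marker lists are given as counts and sums, naming the gene most abundant over the 12 libraries. Other genes were named after their values were seen, namely Pfkp, Pfkm, Slc2a8, Pfkfb4, Tpi1, Ldhb, Bnip3l, P4ha1, Cd14, Itgam, Csf1r, Fcgr1, Mertk, Timd4, Cd163, Cd79b, Lck, Top2a and the genes that overlap or copy a member. Results for a gene withheld from the text are not reported here.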

Additional observations from a re-analysis of the deposited data

Results flagged for a closer look

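Of the 30 groups of 4 values (10 genes in 3 groups) checked for a library far from the rest, 1 stood out. Pkm in Ct mouse 3 was at 599 CPM, while the other Ct mice lay between 412 and 423 CPM. The gap to the nearest of them was 0.942 of the range of the group, past Dixon's 95% critical value for 4 samples. Chance alone marks about 1 in 20 groups. Without Ct mouse 3 the log2 fold change of Pkm was 1.17 in ECH against Ct and 1.30 in HF against Ct (edgeR FDR 0.0230 and 0.00976). Ct mouse 3 was also the highest Ct library for Slc2a1, Hk3, Pfkl, Aldoa, Pgk1 and Ldha.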

How the results depend on the processing

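RLE scaling, a filter of 1 count and calls with no fold minimum left every call and direction of the 10 genes as it was. The log2 fold changes of Pkm and Pfkl against Ct kept their sign under every alternative run (0.89 to 1.25 and 0.92 to 1.18 in ECH, 1.10 to 1.65 and 0.93 to 1.18 in HF). The cause was not tested for any change listed here, other than fewer libraries in fits that leave some out.

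Over all genes DESeq2 called 248 in ECH against Ct, 336 in HF against Ct and 47 in HF against ECH, the likelihood ratio test 218, 273 and 48, and limma-voom 84 and 130 in the comparisons with Ct. DESeq2 and the likelihood ratio test called 1 member in HF against ECH, Pfkfb3 (−1.86 in both), and Pgk1 in HF against Ct (1.15 in both). Pgk1 was also called by limma-voom (1.22) and after filtering for over 1 CPM in 4 libraries (1.14). With limma-voom Hk2 was at 0.060 in HF against Ct and Aldoa at −0.0033 in HF against ECH. Fitting only the groups compared left 0 members and 8 genes in ECH against Ct (Pfkl 1.04, Pkm 1.01) and 1 member in HF against Ct (Pfkl 1.06 not called).

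The replicate numbers of the labels were not taken to pair the mice. Deviations of libraries with the same number correlated at −0.070 to 0.069, and those with different numbers at −0.154 to 0.141. Such values do not settle whether the numbers pair mice. With the replicate block 0 members were called in ECH against Ct (Pfkl 1.06, Pkm 1.01, 22 genes in all) and 0 in HF against Ct (Pfkl 1.07, Pkm 1.17, 18 genes in all).

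With the number series as a covariate 1 member was called in ECH against Ct (22 genes in all), with Pfkl at 1.08 and Pfkfb3 at −0.60. In HF against Ct, where this fit rests on ECH to link the series, 4 members were called (208 genes in all), namely Slc2a1 (2.34), Pfkfb3 (−3.16), Pgk1 (1.76) and Pkm (1.65), with Pfkl at 1.12 and Hk2 at 0.44. In HF against ECH it called 1 member (Pfkfb3 −2.56) and 272 genes. Libraries of a single series gave 0 members and 1 gene in ECH against Ct (Pfkfb3 −0.61, Pfkl 1.08, Pkm 1.24), and 1 member (Pfkfb3 −2.56) and 370 genes in HF against ECH.

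Without Ct mouse 2 and HF mouse 1 together 0 members were called against Ct (Pfkl 0.92 and Pkm 0.95 in ECH, 0.99 and 1.11 in HF), Hk3 was at −0.012 in ECH against Ct and Aldoa at −0.0095 in HF against ECH. Leaving out ECH mice 3 and 4 together was chosen after seeing the data. It called Slc2a1 in ECH (1.38) and Pfkfb3 in HF (−1.04) against Ct, with 20 genes in all in ECH against Ct, Pfkl at 1.08 and Pfkfb3 at −0.61 there, and Slc2a1 at −0.43, Pfkl at −0.022, Aldoa at −0.021 and Pkm at −0.085 in HF against ECH.

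Leaving out 1 library at a time gave 0 to 3 members and 11 to 95 genes in ECH against Ct (lowest without Ct mouse 1, highest without Ct mouse 3), 0 to 4 members and 15 to 103 genes in HF against Ct, and 0 of both in HF against ECH. In ECH against Ct the 2 calls were kept without ECH mouse 4 or HF mouse 1, 1 was left without HF mouse 4, and Pgk1 joined them without Ct mouse 3 (Pgk1 and Ldha in HF). Leaving out any one of the other libraries left 0. In HF against Ct 0 were left without Ct mouse 1, Ct mouse 4, HF mouse 2, HF mouse 3 or HF mouse 4, and 1, Pkm, without Ct mouse 2, ECH mouse 1, ECH mouse 2 or HF mouse 1. The log2 fold changes for ECH against Ct, HF against Ct and HF against ECH ranged as follows.
Slc2a1 lay between 0.51 and 1.13, 0.86 and 1.08, and −0.19 and 0.44, and was at −0.017 without ECH mouse 3.
Hk1 lay between 0.16 and 0.37, 0.29 and 0.52, and 0.031 and 0.24.
Hk2 lay between −0.76 and −0.19, −0.43 and 0.19, and 0.16 and 0.49.
Hk3 lay between −0.00055 and 0.33, 0.37 and 0.66, and 0.20 and 0.50.
Pfkfb3 lay between 0.43 and 1.11, −1.18 and −0.92, and −2.15 and −1.46.
Pfkl lay between 0.93 and 1.18, 0.93 and 1.18, and −0.12 and 0.11.
Aldoa lay between 0.42 and 0.59, 0.48 and 0.63, and −0.014 and 0.16.
Pgk1 lay between 0.67 and 1.13, 1.0 and 1.45, and 0.19 and 0.48.
Pkm lay between 0.89 and 1.17, 1.10 and 1.30, and −0.014 and 0.26.
Ldha lay between 0.41 and 0.76, 0.67 and 1.02, and 0.11 and 0.35.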
